A study of Mus musculus with 12 samples.

Results

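Addition of 5-aminolevulinic acid (5-ALA) to mutant erythroid cells was examined in 6 of the 12 RNA sequencing libraries of the series, 3 with 5-ALA and 3 without. The cells were mouse G1E-ER-GATA-1 cells, erythroid precursors that lack their own GATA-1 and hold in its place a fusion of GATA-1 with an estrogen-binding receptor domain, which beta-estradiol activates to start maturation. All 6 libraries came from cells called double mutants, which carry mutations of cis-elements of Alas2, the gene of the erythroid 5-ALA synthase, and all had received 1 µM beta-estradiol for 48 h. In 3 of them 1 mM 5-ALA hydrochloride was in the medium as well. The other 6 libraries, 3 of wild-type (WT) cells left untreated and 3 of WT cells given the same estradiol treatment, serve below as levels for reference. They also entered the filter on low counts and the shared estimate of spread, but no contrast with them was tested here. The mutated elements, the number of mutant clones and whether the libraries of a group came from separate cultures are not in the labels. The p-values thus measure the spread between libraries within the 4 groups, which may be technical. No mutant cells without estradiol and no WT cells with 5-ALA are among the samples, so the change with 5-ALA applies to estradiol-treated mutant cells.

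Heme is made from glycine and succinyl-CoA. The first enzyme, 5-ALA synthase, exists in a ubiquitous form (Alas1) and an erythroid form (Alas2), and the later enzymes turn 5-ALA into protoporphyrin, into which ferrochelatase inserts iron. Added 5-ALA enters the pathway after the synthase step. Heme is the prosthetic group of hemoglobin and also a signal in erythroid cells. It binds the repressor BACH1, which then leaves the Maf recognition elements of globin and antioxidant genes, and it inhibits the heme-regulated kinase that phosphorylates the initiation factor eIF2. NRF2, the activator that competes with BACH1 for these elements, answers to oxidants.

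Expected counts summed to between 20309085 and 43548387 in the 6 mutant libraries, and 12115 of 25097 genes passed the filter on low counts. Within each mutant group, libraries had a Pearson's r across genes of 0.9976 to 0.9987, and the first principal component of the 6 libraries, with 67.1% of the variance, parted those with 5-ALA from those without. Levels are given as CPM, counts per 1000000 after TMM scaling, for each library or as mean ± SD (n = 3), and differences as log2 fold changes, with minus without 5-ALA. A gene is said to rise or fall when its adjusted p in edgeR's quasi-likelihood F test was below 0.05.

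With 5-ALA, 42.6% of the genes tested changed, 2620 (21.6%) higher and 2543 (21.0%) lower. Most changes were small. The median absolute log2 fold change was 0.25 among genes that rose and 0.23 among those that fell, 215 rose and 65 fell by 2-fold or more, and 672 (5.55%) rose and 431 (3.56%) fell when the test was set against a change of 1.2-fold. The median over all 12115 genes was 0.0056. In 25.3% of the genes tested every library with 5-ALA lay above every library without, and in 23.8% every one lay below. The balance of rises and falls depends on the scale. In the authors' TPM values, in which globin transcripts took 6.81% of the total without and 17.4% with 5-ALA, the median of all genes was -0.15. There limma called 806 of the same 12115 genes higher and 5704 lower, and counts of list members in TPM below stand beside these. Of the calls, 12.4% were then higher, against 50.7% in the counts. Fold changes between -0.15 and 0.15 are therefore given with their TPM value where a gene group turns on them. A change in a transcript's share of the library can come from fewer cells that hold it or from less of it per cell, and bulk RNA does not tell these apart.

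**Figure D1:**
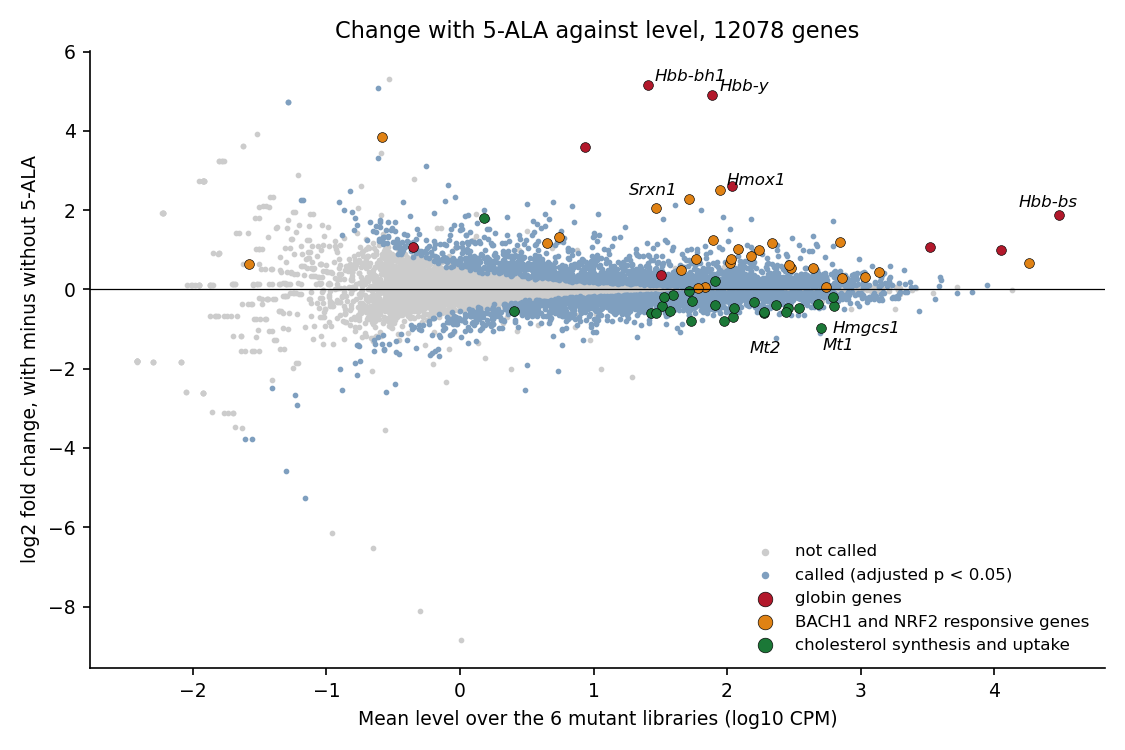
Change with 5-ALA of each gene (vertical axis, log2 fold change, with minus without) against its mean level over the 6 mutant libraries (horizontal axis, log10 CPM). Each point is one of 12078 tested genes with a count in these libraries. Globin genes (red) and BACH1 and NRF2 responsive genes (orange) lie above 0, and all but 2 called genes of cholesterol synthesis and uptake (green) lie below it.

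Alas1 and Alad, at the head of the heme pathway, fell with 5-ALA. Alas1 (chromosome 9, 106233455 to 106248654, minus strand, mm10), the ubiquitous 5-ALA synthase, was at 8.27, 8.56 and 7.999 CPM without 5-ALA and at 4.26, 4.14 and 4.24 CPM with it. The libraries with 5-ALA all lay below those without, at a log2 fold change of -0.98 (SE 0.0886, adjusted p = 2.79e-10), and near the 4.68 ± 0.437 CPM of WT cells with estradiol. Alad (chromosome 4, 62509169 to 62519918, minus strand), which joins 2 molecules of 5-ALA, was at 553, 575 and 560.0 CPM without and 388, 413 and 418 CPM with 5-ALA, a log2 fold change of -0.47 (SE 0.0246, adjusted p = 1.35e-15). It too did not overlap between groups, and WT cells with estradiol stood lower again, at 260.4 ± 2.46 CPM. Of the 9 enzymes, 1 rose and 5 fell, beside 21.6% and 21.0% of all genes; in TPM 0 were higher and 8 lower, with a median of -0.27 against -0.10 in counts. Further down the pathway, Ppox, the protoporphyrinogen oxidase, had a log2 fold change of -0.17 (SE 0.0283). Uros, Urod and Fech did not pass the test in counts, at -0.10 to 0.01, and in TPM were called lower, at -0.27, -0.20 and -0.19, where the median of all genes was -0.15. Exons of B4galt3 overlap those of Ppox.

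Alas2 (ENSMUSG00000025270, chromosome X, 150547375 to 150570638, plus strand), the mutated gene, was the only enzyme of the list that rose. It was at 9.48, 8.24 and 5.20 CPM without and 12.4, 12.5 and 12.1 CPM with 5-ALA, a log2 fold change of 0.72 (SE 0.170, adjusted p = 0.00885). All 6 mutant libraries stayed far below the 4293 ± 15.1 CPM of WT cells with estradiol. Exons of Apex2 overlap those of Alas2, and the rise did not pass the test in TPM (log2 fold change 0.41, adjusted p = 0.0677). Gata1 was at 714, 719 and 735 CPM without and 687, 722 and 734 CPM with 5-ALA, and Gata2 at 27.5, 28.6 and 27.8 and 25.9, 29.5 and 27.6 CPM. Their groups overlapped, and neither passed the test (adjusted p = 0.657 and 0.748). In TPM, where the median of all genes was -0.15, both were called lower, at log2 fold changes of -0.21 and -0.20.

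All 9 globin genes tested rose with 5-ALA, beside 21.6% of all genes, and 8 were called under some other settings. The call of Hbq1a was lost with DESeq2 (adjusted p = 0.0540) and without replicate 1 or 3 of the libraries without 5-ALA (adjusted p = 0.0611 and 0.0695) or replicate 3 of those with it (adjusted p = 0.0992), and that of Hbq1b in TPM (adjusted p = 0.158). The embryonic beta-like genes moved furthest. Hbb-bh1 (chromosome 7, 103841637 to 103843164, minus strand) went from 1.31, 1.52 and 1.28 CPM to 50.6, 47.99 and 50.2 CPM, a log2 fold change of 5.15 (SE 0.0647, adjusted p = 1.35e-30). Hbb-y (chromosome 7, 103851749 to 103853216, minus strand), its neighbour in the beta-globin locus, went from 5.06, 5.40 and 4.59 CPM to 155, 149.7 and 146 CPM, or 4.90 (SE 0.0426, adjusted p = 1.02e-34). Both were near or under 5 CPM in every library without 5-ALA and many times higher in every library with it. WT cells with estradiol held more of each, 268 ± 1.34 CPM of Hbb-bh1 and 654 ± 5.97 CPM of Hbb-y. The embryonic alpha-like gene Hba-x went from 1.29 ± 0.123 to 15.9 ± 1.81 CPM, against 72.3 ± 5.21 CPM in the WT cells.

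The adult globin genes rose less in ratio, from higher levels. Hbb-bs (chromosome 7, 103826534 to 103828096, minus strand), an adult beta-globin, was at 12733, 13132 and 13177 CPM without 5-ALA and at 46646, 47938 and 48886 CPM with it, a log2 fold change of 1.88 (SE 0.0851, adjusted p = 1.75e-07). With 5-ALA it stood near the 46811 ± 381 CPM of WT cells with estradiol. Hbb-bt, the other adult beta-globin, rose by 6.08-fold to 187 ± 6.28 CPM and stayed below the 621 ± 7.71 CPM of the WT cells. The alpha-globins Hba-a1 and Hba-a2 rose by 2.09-fold and 1.98-fold, to 4509 ± 433 and 14989 ± 1097 CPM, against 5199 ± 85.2 and 18880.5 ± 279 CPM in the WT cells. Globin transcripts together made up 2.31 ± 0.0698% of all counts without 5-ALA and 6.39 ± 0.207% with it, beside 6.59 ± 0.0315% in WT cells with estradiol. Reads shared between the near-identical alpha-globin genes, and between the beta-globin genes, were divided by the authors' model, so the split within each pair is less certain than the sum.

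**Figure D2:**
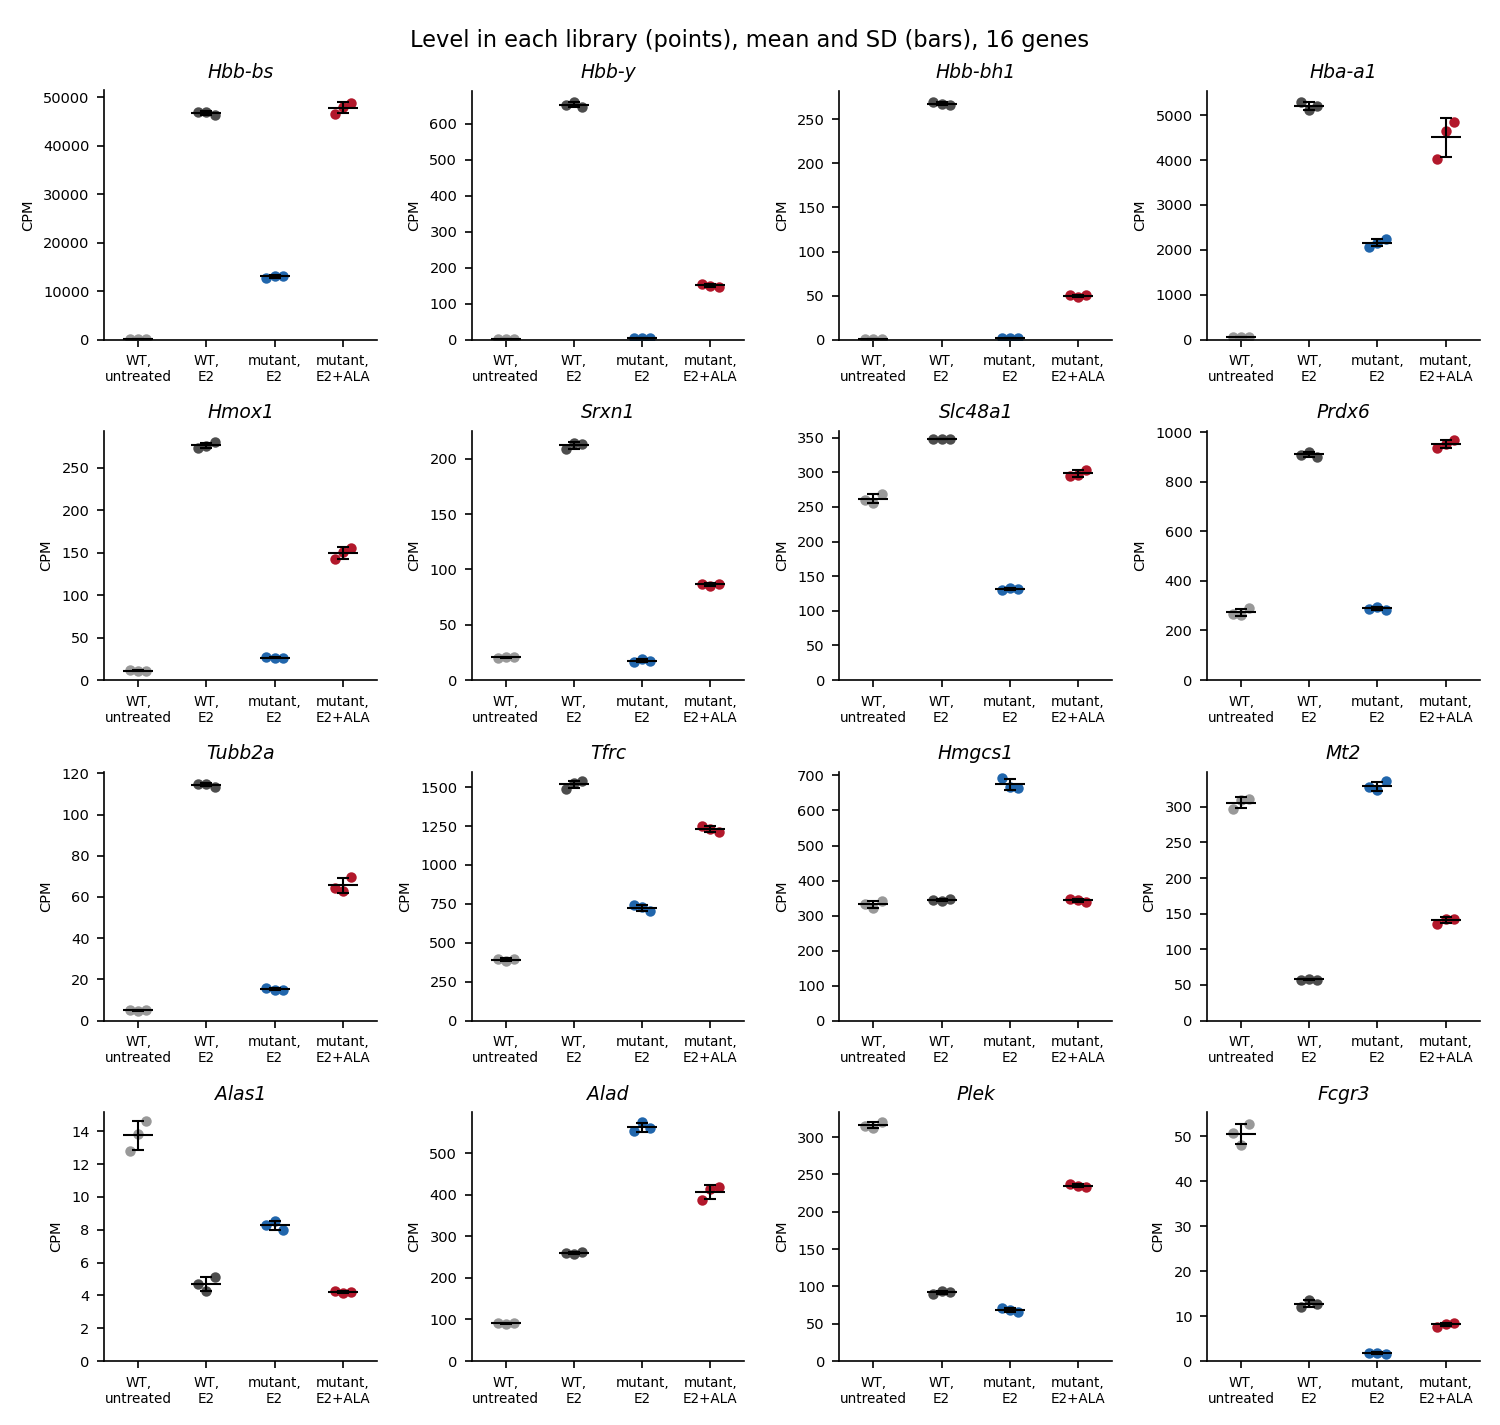
Level of 16 genes (vertical axes, CPM, from 0) in the 12 libraries by group (horizontal axes; E2, beta-estradiol). Points are libraries, and bars show the mean and SD of 3 libraries. In the panels of Hbb-bs, Prdx6 and Hmgcs1 the mutant libraries with 5-ALA (red) sit beside the WT libraries with E2 (dark grey), whereas in Hbb-y, Hbb-bh1, Hmox1, Srxn1 and Mt2 they sit between those and the mutant libraries without 5-ALA (blue).

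Genes known to answer to BACH1 and NRF2 rose nearly together: 24 of the 27 tested were higher and none was lower, beside 21.6% of all genes, and 21 passed the test against 1.2-fold. Their median log2 fold change was 0.76, and 0.47 in TPM. Members of this list, as of all lists here, were chosen with earlier results of these data known. The 3 that did not pass were Txn1, Abcc4 and the hardly detected Gsta4. Hmox1 (ENSMUSG00000005413, chromosome 8, 75093621 to 75100589, plus strand), the inducible heme oxygenase that opens the heme ring, was at 26.8, 26.2 and 26.2 CPM without 5-ALA and 142, 151 and 155 CPM with it. Every library with 5-ALA lay far above every library without, and the log2 fold change was 2.51 (SE 0.0341, adjusted p = 8.21e-30). WT cells with estradiol were higher still, at 276 ± 3.08 CPM. Srxn1 (chromosome 2, 152105516 to 152111376, plus strand), sulfiredoxin, which restores overoxidized peroxiredoxins, went from 16.3, 19.4 and 17.3 to 86.8, 85.3 and 87.2 CPM, or 2.27 (SE 0.0410, adjusted p = 7.73e-27), and stood at 212 ± 3.08 CPM in the WT cells.

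Several of these genes serve glutathione and thioredoxin. Slc7a11, the cystine importer, went from 12.3, 11.1 and 10.8 CPM to 48.03, 46.9 and 45.8 CPM, a log2 fold change of 2.05 (SE 0.0515, adjusted p = 1.9e-23). Gclc and Gclm, the catalytic and modifier subunits of glutamate-cysteine ligase, rose by 1.70-fold and 1.45-fold, and Gsr, glutathione reductase, by 1.41-fold. Txnrd1, the cytosolic thioredoxin reductase, rose by 2.04-fold, from 79.8 ± 0.145 to 163 ± 2.27 CPM. NADPH-forming enzymes were higher as well. Me1 (malic enzyme) had a log2 fold change of 1.16 (SE 0.106), Pgd 0.76 (SE 0.0355) and G6pdx 0.66 (SE 0.0279); Ikbkg exons overlap those of G6pdx. Nqo1, a quinone reductase, went from 2.92, 3.52 and 3.01 to 8.11, 7.65 and 8.13 CPM. Sqstm1, the autophagy receptor p62, rose by 2.28-fold to 969 ± 21.1 CPM (Mrnip exons overlap it), and the glutathione-conjugate exporter Abcc1 by 2.004-fold. Among these, Gclc, Nqo1 and Prdx1 stood at or above the level of WT cells with estradiol, while Sqstm1 (1691 ± 18.1 CPM) and G6pdx (202 ± 3.69 CPM) were higher in the WT cells.

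The 250 bases upstream of the transcription start were searched for short motifs on both strands in RefSeq promoters (GRCm38.p6), as a description. The core of the antioxidant response element, TGACNNNGC, which can overlap the AP-1 site TGACTCA, was found in 11.5% of 27025 promoters, in 13.8% of those of tested genes and in 17.1% of the 492 that rose beyond 1.2-fold, in 12.2% of the 327 that fell beyond it and in 4 of 8 globin genes. It was found in 6 of the 20 BACH1 and NRF2 responsive genes with an entry. Gclm and Prdx1 are shown as 2 of the 6, and Slc7a11 because its promoter holds 2 matches to another motif, the C/EBP-ATF response core TGATGNAA. That core is present in 3.91% of promoters, in 2.55% of those of tested genes and in 6 of 27 genes of the ATF4 list. Capitals mark the matches. The stretches lie at chr3:122245307-122245556 (plus strand) for Gclm, chr4:116685349-116685543 (plus strand) for Prdx1 and chr3:50443615-50443863 (minus strand) for Slc7a11, and are written 5′ to 3′ along the gene, each kept to the longest stretch free of annotated exons.
Gclm: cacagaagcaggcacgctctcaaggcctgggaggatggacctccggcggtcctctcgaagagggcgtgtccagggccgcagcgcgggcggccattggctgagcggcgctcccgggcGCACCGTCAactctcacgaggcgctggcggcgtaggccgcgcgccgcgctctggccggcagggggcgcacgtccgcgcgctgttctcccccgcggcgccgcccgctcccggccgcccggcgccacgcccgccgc
Prdx1: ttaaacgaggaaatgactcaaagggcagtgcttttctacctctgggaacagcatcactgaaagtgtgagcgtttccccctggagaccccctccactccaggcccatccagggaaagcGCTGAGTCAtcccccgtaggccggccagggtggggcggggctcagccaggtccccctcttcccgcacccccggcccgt
Slc7a11: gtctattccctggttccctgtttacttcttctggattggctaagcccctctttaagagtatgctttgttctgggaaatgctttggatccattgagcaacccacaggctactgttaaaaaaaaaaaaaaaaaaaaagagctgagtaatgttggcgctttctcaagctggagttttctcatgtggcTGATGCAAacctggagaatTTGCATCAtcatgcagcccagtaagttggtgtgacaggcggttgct
The Gclm match starts 134 and the Prdx1 match 133 bases upstream of the start. Both genes rose with 5-ALA, Gclm from 364, 359.6 and 347 to 536, 511 and 502 CPM and Prdx1, a peroxiredoxin, from 229.8, 233 and 227 to 355, 346 and 349.6 CPM. The other 4 genes of the list with a match were Abcc4, G6pdx, Mafg and Txnrd1. The GATA motif AGATAA was in 11.4% of all promoters and in 7.59% of those of tested genes. It was in that of Alas2 among 7 heme synthesis genes and in that of Hbb-bs among 8 globin genes with an entry.

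Of 11 tested transcripts of the regulators and their partners, 2 rose and 0 fell beyond 1.2-fold, beside 5.55% and 3.56% of all genes. Bach1 was at 697, 691 and 692 CPM without and 807, 805 and 810.1 CPM with 5-ALA, a log2 fold change of 0.22 (SE 0.0212, adjusted p = 1.04e-09) that was 0.02 in TPM (adjusted p = 0.494). Nfe2l2, which encodes NRF2, was at 254, 245 and 247 and 254, 255 and 249.4 CPM and did not pass the test (adjusted p = 0.425), nor did Keap1, its inhibitor. The small Maf partners Mafg and Maff rose, by 1.45-fold and 1.57-fold (Mafg shares exon positions with Sirt7). Rbck1, a ubiquitin ligase subunit also known as HOIL-1, fell by 1.17-fold. In all, 4 of 11 CNC-bZIP factors and partners were higher and 2 lower, beside 21.6% and 21.0% of all genes. In TPM 2 were higher and 4 lower.

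Enzymes that remove peroxide and superoxide split, with 11 of 18 higher and 5 lower, beside 21.6% and 21.0% of all genes. Their median was 0.12, or -0.0761 in TPM. In TPM 5 were higher and 8 lower, beside 806 and 5704 of all 12115 genes. Prdx6 (chromosome 1, 161240112 to 161251219, minus strand), a peroxiredoxin that uses glutathione, showed the largest change, from 287, 296 and 284 CPM to 936, 953 and 969 CPM and a log2 fold change of 1.72 (SE 0.0286, adjusted p = 1.77e-27). Its level with 5-ALA was close to the 910.4 ± 8.89 CPM of WT cells with estradiol. Cat, catalase, rose from 279.5, 274 and 276 to 545, 536 and 549 CPM, 0.98 (SE 0.0213) on the log2 scale. Sod1, the cytosolic superoxide dismutase, rose by 1.36-fold. The erythroid peroxiredoxin Prdx2 went the other way and fell by 1.16-fold.

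Among genes that degrade heme or carry heme and porphyrins, 8 of 20 rose and 9 fell, beside 21.6% and 21.0% of all genes. In TPM 7 were higher and 11 lower. Hmox1, a degrading enzyme given above, rose most. Slc48a1 (HRG1), which brings heme out of endosomes, was at 130.3, 133 and 132 CPM without and 295, 297 and 304 CPM with 5-ALA, or 1.18 (SE 0.0233, adjusted p = 5.95e-26); its exons overlap Hdac7. Flvcr1, known as a heme exporter, went from 60.5, 60.7 and 60.1 to 126, 121 and 120.2 CPM, or 1.02 (SE 0.0292, adjusted p = 6.42e-22). In both genes the groups were clear of each other, and both with 5-ALA came near the WT levels with estradiol, 348 ± 0.452 and 130.2 ± 0.522 CPM. Abcb6, a porphyrin transporter, rose by 1.44-fold and Pgrmc1, a heme-binding membrane protein, by 1.53-fold. The exporter Abcg2 fell by 1.24-fold. Several genes of mitochondrial steps fell. Fam210b was at 486 ± 13.0 and 358 ± 10.6 CPM, Slc25a38, the glycine carrier that feeds 5-ALA synthesis, had a log2 fold change of -0.22 (SE 0.0355), and Abcb10 and Tmem14c were at -0.16 and -0.14. Tspo2, an erythroid membrane protein, fell furthest of the whole list, from 42.8, 47.3 and 45.5 to 24.6, 23.1 and 25.9 CPM, toward the 4.78 ± 0.612 CPM of the WT cells. Slc25a39, a mitochondrial glutathione carrier, rose by 1.29-fold.

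Iron genes showed both directions, 8 of 21 higher and 5 lower, beside 21.6% and 21.0% of all genes. Their median was 0.0626, or -0.15 in TPM. Tfrc (chromosome 16, 32608920 to 32632794, plus strand), the transferrin receptor through which erythroid cells take up iron, was at 743, 730.3 and 703 CPM without and 1253, 1229 and 1211 CPM with 5-ALA, a log2 fold change of 0.76 (SE 0.0251, adjusted p = 2e-20). Ftl1 and Fth1, the ferritin chains that store iron, rose as well, to 22363 ± 772 and 1581 ± 63.0 CPM, 1.59-fold and 1.34-fold. Ferritin transcripts made up 1.54% of all counts without and 2.26% with 5-ALA. Slc40a1, ferroportin, the iron exporter, went from 48.2, 46.4 and 46.5 to 111, 111 and 111 CPM, or 1.24 (SE 0.0335, adjusted p = 1.33e-22), above the 74.5 ± 1.95 CPM of WT cells with estradiol. Called in TPM were 5 higher and 11 lower genes of the list, beside 806 and 5704 of all 12115 genes. In counts 3 were lower without replicate 1 of the libraries with 5-ALA. Aco1, the iron regulatory protein 1, fell by 1.26-fold, Tfr2 by 1.35-fold and Fbxl5, which marks iron regulatory proteins for degradation, by 1.204-fold. Slc25a37, mitoferrin 1, stayed at 415, 422 and 421 and 412, 421 and 417 CPM (adjusted p = 0.821), with groups that overlapped.

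Cholesterol synthesis and uptake fell almost throughout: 24 of 27 tested genes were lower, beside 21.0% of all genes, 18 of them beyond 1.2-fold. The median log2 fold change was -0.47, and -0.64 in TPM. Hmgcs1 (chromosome 13, 119690379 to 119708260, plus strand), the synthase that forms HMG-CoA, was at 693, 666 and 666 CPM without 5-ALA and 347, 344 and 339 CPM with it. The log2 fold change was -0.97 (SE 0.0244, adjusted p = 1.89e-23), and the level with 5-ALA met the 344 ± 2.09 CPM of WT cells with estradiol. Lss, lanosterol synthase, went from 119, 123.2 and 117 to 68.0, 70.1 and 67.8 CPM, -0.81 (SE 0.0320) on the log2 scale, and Acat2, which starts the pathway, from 67.9, 67.8 and 70.3 to 38.3, 37.6 and 41.7 CPM. Sqle, squalene epoxidase, fell less, by 1.49-fold. The regulators Srebf2, Srebf1 and Scap fell by 1.14-, 1.24- and 1.14-fold.

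Of the list, 2 genes rose, 1 of them beyond 1.2-fold. Abca1, the cholesterol exporter, had the smaller rise, 1.16-fold. Insig2, which retains the SREBP complex in the endoplasmic reticulum, did not pass the test. A sterol regulatory element of 10 letters was searched in the same promoters on both strands. It was in 0.226% of promoters, in 0.142% of those of tested genes and in none of the 20 of this list with an entry. Fatty acid genes followed a like split, with 10 of 15 lower and 2 higher, beside 21.0% and 21.6% of all genes. Their median was -0.25 (12 lower and 2 higher in TPM). Scd2, a stearoyl-CoA desaturase, went from 3259.8 ± 12.8 to 2250.3 ± 30.6 CPM, and Fasn, fatty acid synthase, from 258 ± 5.18 to 192 ± 5.90 CPM. Those higher were Me1, given above among the NADPH-forming enzymes, and Acss2, which makes acetyl-CoA from acetate and rose from 245, 246 and 251 to 488, 487 and 494 CPM; Acss2 shares exon positions with Ggt7 and Gss.

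**Figure D3:**
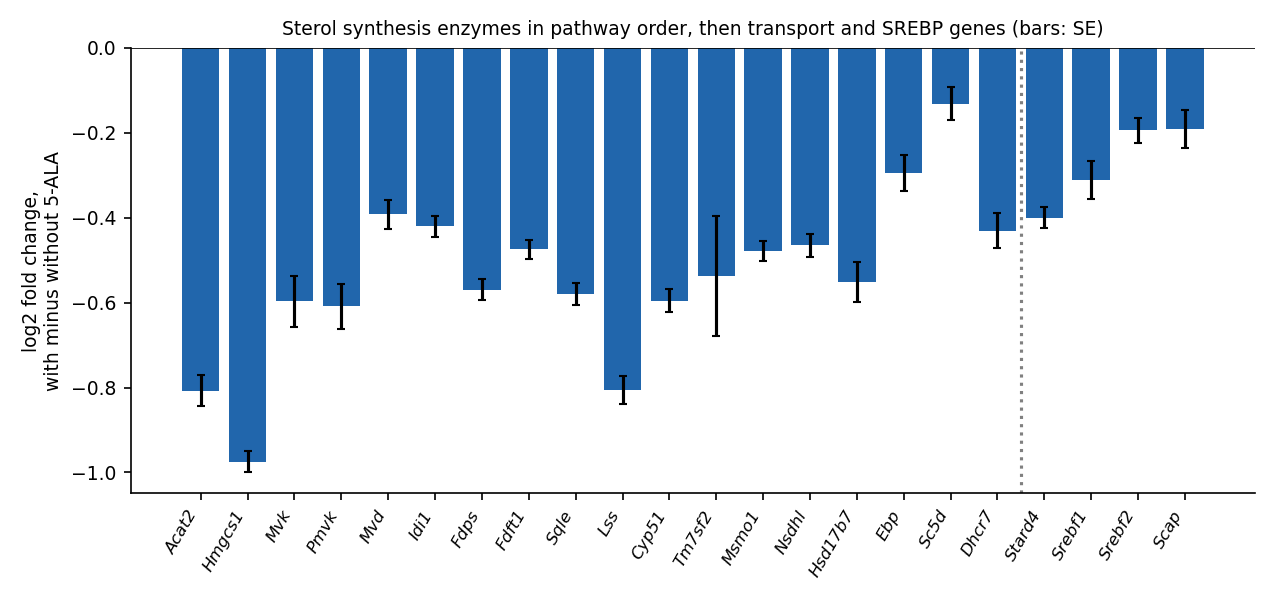
Log2 fold change with 5-ALA (vertical axis, with minus without) of enzymes of sterol synthesis in pathway order, followed after the dotted line by transport and SREBP genes. Bars start at 0, and error bars are the SE. Enzymes from Acat2 to Dhcr7 lie below 0, from -0.97 for Hmgcs1 to -0.13 for Sc5d.

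The metallothioneins Mt2 and Mt1, small metal-binding proteins, fell most among genes above 100 CPM. Mt2 (chromosome 8, 94172664 to 94173568, plus strand) was at 327, 323 and 336 CPM without and 136, 143 and 143 CPM with 5-ALA, a log2 fold change of -1.23 (SE 0.0255, adjusted p = 1.97e-25). Its neighbour Mt1 was at 655, 673 and 702 and 287, 322 and 339.9 CPM, or -1.10 (SE 0.0534, adjusted p = 7.34e-08). No library with 5-ALA reached the level of any without, and WT cells with estradiol were lower again, at 57.8 ± 0.844 and 163 ± 4.20 CPM. Slc30a1, which exports zinc from the cell and is, like the metallothioneins, a known target of the metal-sensing factor MTF1, went the other way, from 404, 398 and 391 to 851, 845 and 855 CPM (log2 fold change 1.098, SE 0.0233, adjusted p = 2.87e-25). Another exporter, Slc30a10, known for manganese, fell by 1.32-fold; Gm2061 exons overlap it. The importers Slc39a8 and Slc39a7 rose by 1.23-fold and 1.246-fold. Zinc and metallothionein genes counted 6 higher and 7 lower of 19, beside 21.6% and 21.0% of all genes. In TPM 3 were higher and 10 lower. Mtf1 itself had a log2 fold change of -0.08 (SE 0.0223).

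Genes downstream of eIF2 phosphorylation and ATF4 did not move as a body. Of 32 tested, 16 rose and 7 fell, beside 21.6% and 21.0% of all genes, with a median of 0.10. In TPM the median was -0.14, with 9 higher and 16 lower, beside 806 and 5704 of all 12115 genes. Slc7a11, given above, is on this list too. Trib3, a pseudokinase, rose from 53.6, 51.4 and 54.0 to 64.9, 71.6 and 72.9 CPM, Eif4ebp1, an inhibitor of cap-dependent translation, by 1.53-fold, and the amino acid transporters Slc7a1 and Slc3a2 by 1.43-fold and 1.34-fold. Slc1a5, a glutamine transporter, fell from 16.8, 17.0 and 18.9 to 10.7, 9.53 and 9.95 CPM, or -0.81 (SE 0.0652), and Ddit4, an inhibitor of mTORC1, from 42.9 ± 4.64 to 27.1 ± 1.58 CPM. Nupr1 and Pck2 fell by 1.29-fold and 1.204-fold, and the serine synthesis enzyme Psat1 by 1.099-fold. Ddit3, which encodes CHOP, was at 332, 332 and 347 CPM without and 319, 333 and 334 CPM with 5-ALA, with overlapping groups and no call (adjusted p = 0.239); Mars exons overlap it. For Asns, asparagine synthetase, the values were 304, 314 and 303 and 279, 278 and 283 CPM, a fall of 1.097-fold. Carriers that could take up 5-ALA or amino acids gave 4 higher and 1 lower of 13, beside 21.6% and 21.0% of all genes, and 1 higher and 4 lower in TPM (2 lower in counts without replicate 3 of the libraries with 5-ALA). The median of these carriers was 0.16, or -0.0190 in TPM. Beyond 1.2-fold 2 rose and 0 fell, beside 5.55% and 3.56% of all genes. The 1 that fell was Slc36a1, a proton-coupled amino acid carrier, by 1.09-fold. That call was lost without replicate 2 of the libraries without 5-ALA (adjusted p = 0.153). It was also lost without replicate 1 of those with it (adjusted p = 0.0555).

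Genes that build ribosomes and genes that encode ribosomal proteins went in opposite directions. Of 30 ribosome biogenesis genes, 20 rose and 1, Npm1, fell, beside 21.6% and 21.0% of all genes. Their median was 0.23, or 0.0317 in TPM (9 higher, 6 lower). Polr1a, the largest subunit of RNA polymerase I, went from 15.4, 13.9 and 13.4 to 21.0, 22.5 and 20.8 CPM, and Mybbp1a and Gnl3, nucleolar proteins, rose by 1.37-fold and 1.37-fold; each of these 3 shares exon positions with another gene (Gm26628, Spns2 and Pbrm1). Myc, a known activator of these genes, rose from 37.0, 41.2 and 40.2 to 77.5, 81.2 and 82.7 CPM, a log2 fold change of 1.02 (SE 0.0423, adjusted p = 3.99e-16), above the 43.95 ± 1.81 CPM of WT cells with estradiol. Of 76 ribosomal protein genes, 60 fell and 1 rose, beside 21.0% and 21.6% of all genes. Their median was -0.15, or -0.36 in TPM (74 lower, 1 higher). Those that rose were 3 without replicate 3 of the libraries without 5-ALA and 2 without replicate 1 of those with it. As a share of all counts they went from 5.05 ± 0.0883% to 4.26 ± 0.0539%, beside 2.78 ± 0.0100% in WT cells with estradiol. Rps21 was at 282, 287 and 320.4 CPM without and 219, 232 and 236 CPM with 5-ALA. Rps10 was at 369.5, 407 and 436 and 256, 317 and 339 CPM, or -0.41 (SE 0.112, adjusted p = 0.0168), a call lost when the 6 mutant libraries were fitted alone (adjusted p = 0.0743) or without replicate 3 of the libraries without 5-ALA (adjusted p = 0.0585). Cytosolic aminoacyl-tRNA synthetases gave 16 higher and 3 lower of 23 in counts, beside 21.6% and 21.0% of all genes. In TPM they gave 4 and 10, and their median turned from 0.16 to -0.0467. Eprs, the bifunctional synthetase for glutamate and proline, rose by 1.27-fold.

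**Figure D4:**
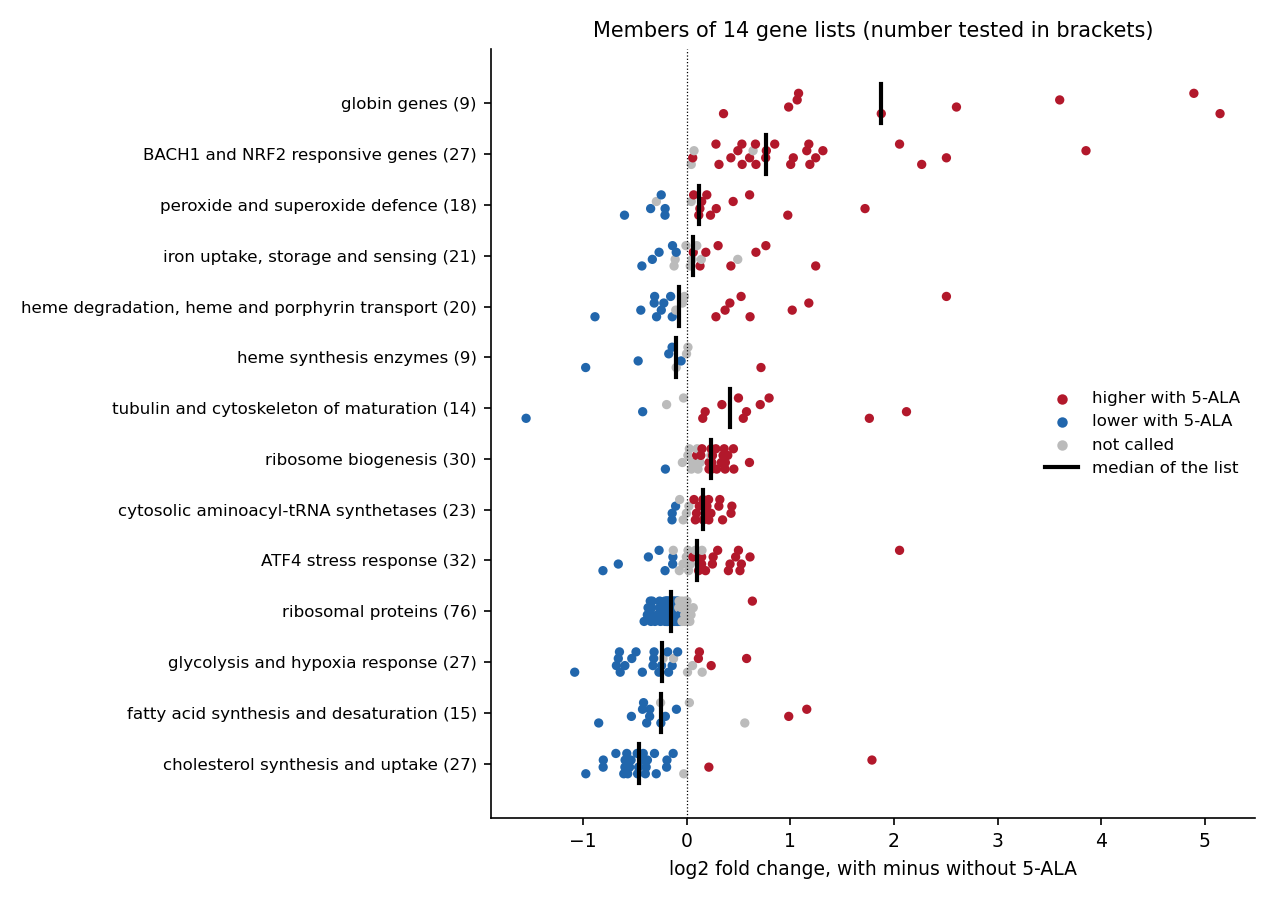
Log2 fold change with 5-ALA (horizontal axis, with minus without) of the tested members of 14 gene lists. Each point is a gene, coloured by its call, and black bars mark list medians, the highest for globins and the lowest for cholesterol synthesis and uptake.

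Glycolysis and hypoxia genes were mostly lower, 18 of 27, with 4 higher, beside 21.0% and 21.6% of all genes. Those higher were 2 without replicate 2 of the libraries with 5-ALA. The median was -0.24, and in TPM 21 were lower and 1 higher. Ldha, lactate dehydrogenase A, went from 58.5, 66.4 and 64.9 to 41.5, 38.1 and 42.1 CPM, or -0.65 (SE 0.0411, adjusted p = 1.98e-11), Tpi1 from 96.2 ± 0.976 to 61.6 ± 3.29 CPM (Spsb2 exons overlap it), and Pfkl, a phosphofructokinase, from 13.2 ± 0.412 to 8.27 ± 0.281 CPM. Ldha and Pfkl moved away from WT cells with estradiol, which held 88.8 ± 1.67 and 25.0 ± 0.578 CPM. Egln1, an oxygen-sensing prolyl hydroxylase that uses iron, showed the largest fall of the list, from 13.7, 13.6 and 13.4 to 6.20, 6.59 and 6.43 CPM (log2 fold change -1.08, SE 0.0729, adjusted p = 4.04e-13). Hk1, hexokinase 1, fell by 1.35-fold. Aldoa, aldolase A, rose against the others, from 1305, 1327 and 1361 to 1900.1, 1996 and 2061 CPM, and shares exon positions with Fam57b. Among the 13 mRNAs of the mitochondrial genome, 8 fell and 2 rose, beside 21.0% and 21.6% of all genes, with a median of -0.10. In TPM 11 were lower and 0 higher, with a median of -0.31. Those of complex I moved most, mt-Nd1 from 331 ± 8.56 to 239 ± 13.1 CPM and mt-Nd3 from 74.9 ± 4.23 to 52.3 ± 3.60 CPM. Nuclear genes of the respiratory complexes stayed within log2 fold changes of -0.27 and 0.28, with 7 higher and 12 lower of 44, beside 21.6% and 21.0% of all genes. In TPM 0 were higher and 37 lower. The higher calls in counts were 3 without replicate 1 or replicate 2 of the libraries without 5-ALA or replicate 2 of those with it, and 4 without replicate 3 of those with it.

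Genes of red cell form split. In the red cell membrane list 11 of 26 rose and 9 fell, beside 21.6% and 21.0% of all genes. The median of 0.10 was -0.0057 without replicate 1 of the libraries with 5-ALA. In TPM 8 were higher and 13 lower, with a median of -0.13. Slc4a1, the anion exchanger band 3, went from 971, 992 and 989.8 to 1448, 1475 and 1487 CPM, a log2 fold change of 0.58 (SE 0.0279, adjusted p = 2.44e-16), and stayed well below the 2821 ± 11.2 CPM of WT cells with estradiol. Sptb, erythroid beta-spectrin, did not pass the test (adjusted p = 0.106). Rhag, the Rh-associated glycoprotein, rose from 20.7 ± 0.730 to 34.8 ± 1.43 CPM while the blood group gene Rhd fell from 6.88 ± 0.582 to 3.04 ± 0.115 CPM. Of 14 tubulin and cytoskeleton genes 10 rose and 2 fell, beside 21.6% and 21.0% of all genes. Their median was 0.42, or 0.21 in TPM (8 higher, 2 lower). A single gene of the list fell in counts without replicate 1 of the libraries without 5-ALA, or replicate 1 or 2 of those with it. Tubb2a (chromosome 13, 34074274 to 34078007, minus strand) went from 15.9, 14.9 and 14.9 to 64.4, 62.9 and 69.7 CPM, a log2 fold change of 2.12 (SE 0.0436, adjusted p = 1.4e-25), and the near-identical Tubb2b from 13.4, 14.8 and 16.6 to 48.2, 51.6 and 53.2 CPM; reads shared by the pair were divided by the authors' model. Tuba1b and Actg1, an alpha-tubulin and the gamma-actin, rose by 1.63-fold and 1.73-fold. Tbcel, which destabilizes tubulin, rose from 252, 248.6 and 243 to 634, 625 and 630.5 CPM (log2 fold change 1.35, SE 0.0241, adjusted p = 6.61e-27).

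Erythroid transcription factors counted 6 higher and 7 lower of 23 in counts, beside 21.6% and 21.0% of all genes. In TPM they counted 0 and 16. Klf1, which drives adult globin, was at 103, 109 and 118 CPM without and 92.2, 110.3 and 113 CPM with 5-ALA, with overlapping groups (adjusted p = 0.548). Gfi1b, a repressor that erythroid cells need, rose by 1.27-fold. Bcl11a, known as a silencer of embryonic and fetal globin genes, fell from 26.5, 26.0 and 25.9 to 17.1, 18.8 and 17.5 CPM, or -0.55 (SE 0.0468, adjusted p = 6.92e-11), against 6.66 ± 0.339 CPM in WT cells with estradiol. Trim10 and E2f2 fell by 1.43-fold and 1.41-fold. Of 16 stem and progenitor genes, 6 rose and 1 fell (2 without replicate 1 of the libraries without 5-ALA), beside 21.6% and 21.0% of all genes, and in TPM 3 were higher and 4 lower. Beside Myc those that rose in counts included Spi1, which encodes the myeloid and progenitor factor PU.1, from 6.13, 5.58 and 5.66 to 14.3, 14.6 and 14.8 CPM (log2 fold change 1.34, SE 0.0710, adjusted p = 1.7e-15), away from the 5.09 ± 0.333 CPM of the WT cells. Kit and Cd34 were at 4.69 ± 0.532 and 11.4 ± 1.37 CPM with 5-ALA, against 3.68 ± 0.738 and 8.66 ± 0.796 without.

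In the S phase and mitosis list 13 of 40 fell and 3 rose, beside 21.0% and 21.6% of all genes, and the other 24 did not pass the test. The median was -0.23, or -0.25 in TPM, where 23 were lower and 1 higher. Ccnb1, cyclin B1, went from 84.1, 83.1 and 82.7 to 56.6, 60.1 and 55.5 CPM, or -0.54 (SE 0.0343, adjusted p = 1.23e-13), and Ccna2, cyclin A2, which overlaps Exosc9, from 15.8 ± 1.05 to 9.38 ± 0.384 CPM. Rrm2, a subunit of ribonucleotide reductase, fell by 1.74-fold. Of 23 CDK inhibitor and p53-responsive genes, 10 fell, such as Cdkn2c and Gadd45a (1.34-fold and 1.32-fold), and 5 rose. The shares over all genes were 21.0% and 21.6%. In TPM 18 of the 23 were lower and 1 higher. Among apoptosis regulators 10 of 19 fell and 2 rose, beside 21.0% and 21.6% of all genes. Of the 2, Bid, a pro-apoptotic BH3 protein, went from 28.7 ± 1.42 to 45.3 ± 1.31 CPM (Bcl2l13 exons overlap it). In TPM 14 of these regulators were lower and 1 higher.

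Genes of protein and organelle turnover went both ways. Of 32 proteasome subunits 14 rose and 3 fell (5 fell without replicate 3 of the libraries with 5-ALA), beside 21.6% and 21.0% of all genes. In TPM 5 were higher and 21 lower, and the median turned from 0.0437 to -0.16. Psma5 showed the largest change, from 76.8, 77.9 and 77.5 to 127, 123.1 and 125 CPM (log2 fold change 0.69, SE 0.0277, adjusted p = 2.52e-18). Autophagy genes counted 14 higher and 2 lower of 31 in counts, beside 21.6% and 21.0% of all genes. In TPM they counted 2 and 16, where 806 and 5704 of all 12115 genes were called. In counts 9 were higher when replicate 2 of the libraries with 5-ALA was left out. Gabarapl1, an ATG8 family member, rose from 179.9 ± 9.23 to 268 ± 6.99 CPM and overlaps 1700101I11Rik. Lysosome genes were 14 higher and 7 lower of 29 in counts, beside 21.6% and 21.0% of all genes, and 4 and 18 in TPM. The protease gene Ctsd was at 1294 ± 12.7 and 1711 ± 32.9 CPM, without and with 5-ALA. For Psap, prosaposin, the values were 163 ± 4.81 and 233 ± 5.66 CPM. Among heat shock genes, 7 rose and 7 fell of 18, beside 21.6% and 21.0% of all genes. In TPM 3 were higher and 11 lower. Hsp90aa1 and Hsp90ab1, the cytosolic forms of HSP90, rose by 1.39-fold and 1.33-fold, and Hsp90b1, the form of the endoplasmic reticulum, fell by 1.15-fold.

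Among the largest changes were genes of no list above. Nyx, which encodes a leucine-rich proteoglycan, went from 25.1, 25.4 and 26.7 to 103, 104 and 100.4 CPM (log2 fold change 1.99, SE 0.0386, adjusted p = 4.18e-26), against 125 ± 4.58 CPM in WT cells with estradiol. Gsn, gelsolin, which severs actin filaments, went from 4.28, 4.68 and 4.53 to 16.7, 16.7 and 17.5 CPM, and Camk1d, a calcium-dependent kinase, from 40.7, 40.8 and 41.7 to 147, 144 and 147 CPM, above the 113 ± 2.87 CPM of the WT cells. Fbxo30, a ubiquitin ligase subunit, rose by 2.88-fold to 157 ± 8.24 CPM. Falls were smaller in size. Fam162a, a mitochondrial protein induced by hypoxia, went from 29.7, 28.1 and 30.4 to 13.1, 13.1 and 12.4 CPM (log2 fold change -1.19, SE 0.0512, adjusted p = 1.3e-17) and overlaps Wdr5b. Zfhx4, a zinc finger homeobox gene, went from 15.4, 14.3 and 12.9 to 7.36, 5.91 and 6.68 CPM. Pdia2, a disulfide isomerase, had wide libraries, 55.9, 56.7 and 66.5 CPM without and 28.5, 21.9 and 35.1 CPM with 5-ALA, and a log2 fold change of -1.06 (SE 0.175, adjusted p = 0.00113). Further falls of 1.81- to 1.95-fold came in 6030468B19Rik, Prps2, Tusc3, Tnk2 and Ctsf, the last 4 being a phosphoribosyl pyrophosphate synthetase, an oligosaccharyltransferase subunit, a tyrosine kinase and cathepsin F. Above 100 CPM, Atp1b2, a sodium pump subunit, fell from 456 ± 8.59 to 292 ± 2.42 CPM and Hnrnpa1, a splicing factor, from 370.2 ± 10.2 to 237 ± 5.05 CPM.

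Genes that mark other cell types were mostly absent or low. The erythroid markers Hbb-bs, Slc4a1, Tfrc, Ank1 and Sptb were high in all 6 libraries. Under 1 CPM in both mutant groups were 6 of 14 megakaryocyte, 9 of 11 mast cell, 12 of 14 granulocyte and macrophage, 11 of 12 lymphocyte and 9 of 10 fibroblast markers, and 1, 5, 6, 3 and 3 of these had no count in any of the 6 libraries. Those with no count were Gp1bb for megakaryocytes, Mcpt8, Prss34, Fcer1a, Ms4a2 and Tpsb2 for mast cells, Elane, Ctsg, Ly6g, S100a8, S100a9 and Lyz2 for granulocytes and macrophages, Cd3g, Cd79b and Pax5 for lymphocytes and Dcn, Lum and Thy1 for fibroblasts. Sums of CPM were taken over the tested members, 6 for mast cells, 4 for granulocytes and macrophages, 4 for lymphocytes and 3 for fibroblasts. Without and with 5-ALA they were 29.5 to 30.6 and 28.5 to 32.0 for mast cells, mostly from Gata2. For granulocytes and macrophages they were 4.04 to 4.26 and 10.2 to 11.5. For lymphocytes they were 1.43 to 1.75 and 1.73 to 2.41, and for fibroblasts 5.61 to 6.11 and 5.19 to 5.56. Among these lists Cma1, Ms4a1 and Fcgr3 rose and Cpa3 fell, and all but Fcgr3 were under 2 CPM in every mutant library. The call of Cma1 was lost without replicate 1 of the libraries without 5-ALA or replicate 2 of those with it, and that of Cpa3 without replicate 2 of the libraries without 5-ALA. Ms4a1 did not pass without replicate 1 or 2 of the libraries without 5-ALA or replicate 2 of those with it (adjusted p = 0.0831, 0.149 and 0.225). The tested megakaryocyte markers summed to between 579 and 589 CPM without 5-ALA and between 1046 and 1065 CPM with it. Of the 10 tested, 5 rose, beside 21.6% of all genes. Plek, pleckstrin, a platelet protein, went from 71.0, 68.6 and 66.0 to 237, 235 and 234 CPM (log2 fold change 1.78, SE 0.0266, adjusted p = 7.55e-29) and overlaps Cnrip1. Pf4, platelet factor 4, went from 2.09, 2.20 and 1.89 to 6.20, 6.06 and 5.81 CPM, and the integrin gene Itgb3, which erythroid precursors also express, from 381, 394 and 396 to 679, 684 and 696 CPM. Gp1ba fell by 1.30-fold, and Gp9 did not pass the test (adjusted p = 0.095). Fcgr3, a receptor of macrophages and mast cells, rose from 1.85, 1.86 and 1.55 to 7.68, 8.25 and 8.51 CPM (log2 fold change 2.22, SE 0.0983, adjusted p = 2.77e-17), while the other granulocyte and macrophage markers tested, Mpo, Cd68 and Itgam, did not pass. Untreated WT cells held more of Plek and Fcgr3 than any mutant library, 316 ± 4.26 and 50.5 ± 2.29 CPM. The part of other cells in these changes was not tested.

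Length, a second readout of the tables, shifted in 1 gene at a mean count of at least 100, in 4 at a minimum of 500 and in 2 without replicate 1 of the libraries with 5-ALA. The authors' values give each gene's transcript length weighted by the estimated abundance of its isoforms, and 1 of 6327 genes (0.0158%) differed between the mutant groups in limma at an adjusted p below 0.05, with 680 at an unadjusted p below 0.05. That gene was Slc7a11 (chromosome 3, 49892526 to 50443614, minus strand). Its mean length was 4047, 4106 and 4003 bases without 5-ALA and 6281, 6270 and 6313 bases with it. The groups were clear of each other, with a log2 difference of 0.63 (SE 0.0113, adjusted p = 0.000315). WT cells with estradiol had 5988 ± 52.1 bases and untreated WT cells 5706 ± 456. GENCODE M21 lists 5 transcripts of this gene, of which the protein-coding ones have 2419 and 9223 bases. TPM values are divided by this length, and the rise of Slc7a11 in TPM was smaller, 2.29-fold, from 4.91 ± 0.383 to 11.3 ± 0.466, against 4.15-fold in CPM.

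**Figure D5:**
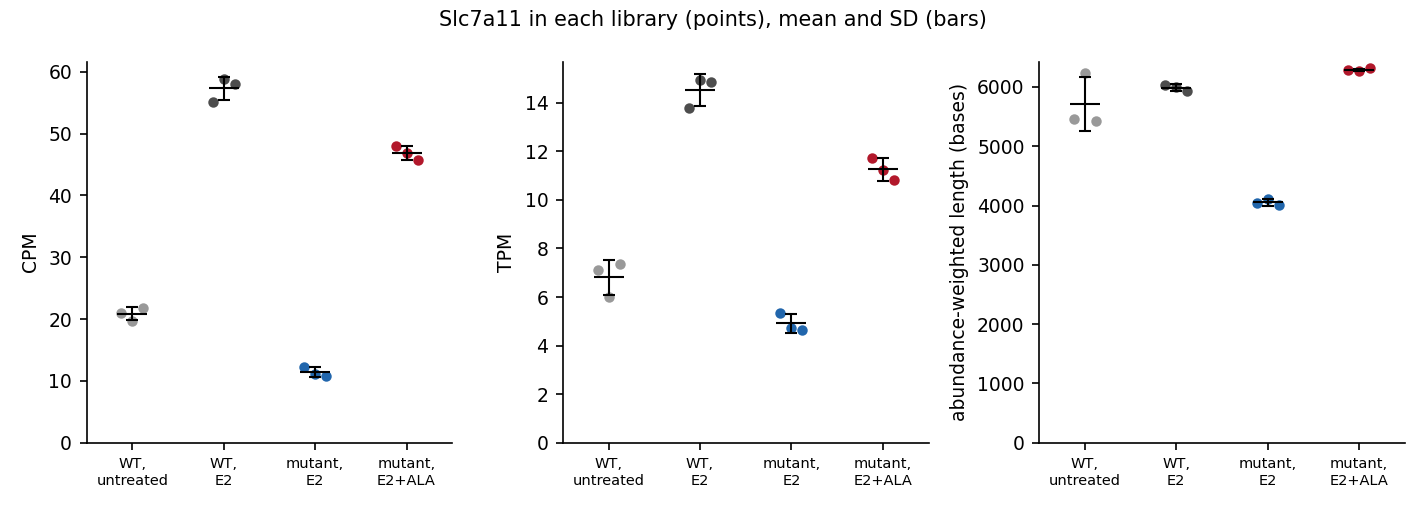
Slc7a11 in the 12 libraries by group (E2, beta-estradiol): CPM, TPM and abundance-weighted transcript length in bases, each axis from 0, with points for libraries and bars for mean and SD. The 3 mutant libraries without 5-ALA, at 4003 to 4106 bases, sit below all other libraries in length.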

How the data were processed

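RNA from the cells was extracted with TRIzol and made into TruSeq libraries, per the labels' protocols. Per the submitters' processing notes, CASAVA 1.8.2, RSEM 1.2.20, Bowtie 1.1.1 and build mm10 were used. For the annotation release and the strand setting, the sources used here give nothing. The authors deposited per gene the expected counts (estimated counts, in which RSEM divides shared reads), TPM, FPKM (not used) and an abundance-weighted transcript length in bases, per the file headers.

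Expected counts were rounded, filtered by expression, scaled by TMM and tested with edgeR 4.0.16 (R 4.3.3) in a quasi-likelihood fit of 4 group means over all 12 libraries, with Benjamini-Hochberg adjustment over 12115 genes. SE is the log2 fold change divided by the root of F, an approximation. CPM values are scaled by TMM. Changes beyond 1.2-fold were tested with glmTreat, and log2 length with limma 3.58.1 in genes with a mean count of at least 100. Alternatives were DESeq2 1.42.0, other scalings and filters, limma on log2(TPM + 1), the 6 libraries alone, a replicate block and each library left out.

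Coordinates and exon overlaps come from GENCODE M21 (mm10), matched to 24746 of 25097 genes. Overlaps not given beside the values are Hsp90b1 with 1810014B01Rik, Fbxl5 with Bst1, Keap1 with Gm16754, Mtf1 with 1110065P20Rik, Prdx2 with Junb and Rnaseh2a, Scap with 5830462I19Rik, Sptb with Plekhg3 and Srebf1 with Rai1. The rule for named genes took Alas2, Gata1 and Gata2, the 12 largest rises and falls at a mean of 10 CPM or more, the 6 largest at 100 CPM or more, and up to 4 called members of each of 39 lists, 154 genes in all. Other list members were named after their values were seen. Some list members are counted but not reported here by name. Members and lists were chosen with earlier results of these data known. On simulated data with 11979 genes the 5-ALA comparison recovered 58, 78, 88 and 92% of genes changed 1.25-, 1.5-, 2- and 4-fold.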

Additional observations from a re-analysis of the deposited data

How the results depend on the processing

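In limma on log2(TPM + 1), 806 genes were higher and 5704 lower, against 2620 and 2543 in the counts, and Cox15 (-0.0102), Dis3 (-0.0254), Exosc10 (-0.0671) and Slc15a2 (-0.0507) turned below 0. Set against 1.1-fold in place of 1.2-fold, the test called 1307 genes higher and 1156 lower, and against 1.5-fold 202 and 40. Other scalings, filters, DESeq2 and the 6 libraries alone gave 2140 to 2617 higher and 2264 to 2863 lower. With one library left out, between 2152 and 2479 genes were higher and between 2176 and 2552 lower, and beyond 1.2-fold between 592 and 637 and between 361 and 432. Gata1 and Gata2, not called, lay between -0.0461 and 0.0113 and between -0.0767 and 0.0221, above 0 without replicate 1 of the libraries with 5-ALA. Length called 4 genes at a count minimum of 500 (Acss2, H2-T22, Pnkd and Slc7a11) and 1 to 2 with one library left out, Slc7a11 each time. The cause of these shifts was not tested. Libraries of the mutant groups share replicate numbers only: their deviations correlated at 0.161, 0.0320 and 0.164, each best with its own number. With the replicate block 2549 genes were higher and 2483 lower, 660 and 425 beyond 1.2-fold, and of the 154 named genes Ms4a1 and Rpl27a lost their call. Alas2 had few counts in mutant cells, and its log2 fold change lay between 0.50 and 0.83 with one library left out. The part of depth in this spread was not tested.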

Other observations

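Beside the groups described above, heme-binding and circadian regulators gave 5 higher and 4 lower of 12 genes. Over all genes the shares were 21.6% and 21.0%. Of the regulators, 2 were lower without replicate 2 of the libraries with 5-ALA, and in TPM 2 were higher and 6 lower. Nr1d1, which encodes the heme receptor REV-ERB alpha, went from 1.61, 2.13 and 1.67 CPM without 5-ALA to 2.60, 3.01 and 3.08 CPM with it, a log2 fold change of 0.65 (SE 0.157, adjusted p = 0.00115), with groups that did not overlap. Cry2, a clock repressor, rose by 1.32-fold. Among aryl hydrocarbon receptor targets Nqo1 rose, as given above, and Tiparp fell from 14.9, 16.1 and 15.998 to 12.2, 10.9 and 10.9 CPM. Thus 1 of 5 rose and 1 fell, beside 21.6% and 21.0% of all genes. Of 14 interferon response genes 6 fell and 2 rose, beside 21.0% and 21.6% of all genes. In counts 1 rose without replicate 1 of the libraries without 5-ALA, or replicate 2 or 3 of those with it. In TPM 9 were lower and 1 higher. Mx1, an antiviral GTPase, was the larger of the rises, from 3.21, 3.22 and 3.56 to 5.12, 5.21 and 5.15 CPM.

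Gm10800 and Gm26870, predicted genes, were high in 1 library without 5-ALA alone. Gm10800 was at 83.8 CPM in replicate 1 and at 9.03 and 4.68 CPM in replicates 2 and 3, and between 5.18 and 8.22 CPM with 5-ALA. Gm26870 was at 46.0 CPM in replicate 1 and at 6.54 and 3.56 CPM in the others, and between 3.19 and 4.72 CPM with 5-ALA. Neither passed the test (adjusted p = 0.362 and 0.349). Both were chosen after their values were seen.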
